A study of Homo sapiens with 12 samples.

Results

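The DNA beside the centromeres of 17 human chromosomes was examined for H3K9me3, histone H3 trimethylated at lysine 9, in the colorectal carcinoma cell line HCT116. The members were all H3K9me3 peaks whose midpoint lay in 1 window around the centromere of chromosomes 1 to 12, 16, 17, 18, 20 and X. The windows were set by position alone, in build hg19. They hold 169 Mb outside the centromere gaps, which is 5.743% of the sequence of chromosomes 1 to 22 and X. They contained 1100 of the 5333 H3K9me3 peaks listed in 4 libraries.

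The 2 control libraries, A and B, came from cells at 0 hr in RPMI-1640 with fetal bovine serum. The 2 restricted libraries, A and B, came from cells kept for 24 hr in methionine-free RPMI-1640 with serum. All cells were labelled HCT116 at passage 19. A control at 24 hr is not among the libraries, and the effect of restriction cannot be told apart from that of time. A cell line gives no spread between donors. The labels do not state whether A and B were separate cultures. The spread between them, and every p-value here, may therefore be technical. The letter also coincides with the sequencing lane, and ratios of A to A and of B to B are within-lane values. The libraries held 35736289, 33503018, 33801853 and 35023269 reads for control A and B and then restricted A and B, and values below follow this order.

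Methionine is the precursor of S-adenosylmethionine, the methyl donor of histone methyltransferases. H3K9me3 is the mark of constitutive heterochromatin, is bound by HP1 proteins, and in mammals is laid down beside centromeres mainly by SUV39H1 and SUV39H2. Pericentromeric DNA is largely satellite and segmentally duplicated sequence. The assembly represents only some of its copies, so reads from many copies can pile up on a few of them, in an immunoprecipitate and in its input alike. How multiply mapping reads were treated is not given in the sources used here.

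Peaks beside the centromeres covered less sequence in both restricted libraries than in either control. The length under member peaks was 540.4 kb and 467.1 kb in control A and B, and 460.1 kb and 313.4 kb in restricted A and B. The groups did not overlap, but control B and restricted A lay close together. The means were 503.7 ± 51.8 kb (SD, n = 2) and 386.7 ± 103.7 kb (SD, n = 2). The log2 difference was -0.40 (exact two-sided permutation test, p = 0.33, the smallest that 2 libraries against 2 allow). Within lanes the restricted length was 0.851 times the control length for A and 0.671 times for B. Without the chr4 window the lengths were 465.0, 401.6, 408.1 and 305.3 kb, and the groups overlapped (exact permutation p = 0.667).

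The number of peaks did not separate the groups. The controls listed 332 (A) and 238 (B), the restricted libraries 343 (A) and 187 (B), so the highest and the lowest count were both in restricted libraries (log2 difference -0.15, exact permutation p = 1.0). On chromosomes 1 to 22 and X the windows held 24.2%, 29.9%, 18.2% and 27.7% of the peaks of each list. They held 37.3%, 49.5%, 26.0% and 44.1% of the listed length, a share 0.697 times as large in restricted A as in control A and 0.891 times for B (log2 difference -0.34, exact permutation p = 0.667). Elsewhere the length under peaks was 907.4, 476.6, 1309 and 397.3 kb, highest in restricted A and lowest in restricted B (log2 difference 0.13, exact permutation p = 1.0). Beside the centromeres of the acrocentric chromosomes, which lie outside the windows, it was 107.5, 100.1, 185.3 and 71.8 kb. The groups overlapped there too (log2 difference 0.15).

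Less length was listed as wide or strong peaks in the restricted libraries. Member peaks of at least 5 kb numbered 22 and 20 in the controls and 9 and 14 in the restricted libraries. Together they covered 192.5 and 190.4 kb against 83.6 and 107.0 kb, a log2 difference of -1.02 (exact permutation p = 0.33). The controls differed from each other by about 2 kb, and the lanes gave ratios of 0.434 and 0.562. Each library's own peak width sets this class, so a peak that is shorter or split leaves it. On chr17, for example, a peak of 17009 bp in control A was listed as 2 peaks of 10145 and 4780 bp in restricted A, the second of which falls out of the class. Peaks with a −log10 q of at least 5 covered 321.1 and 294.4 kb in the controls and 180.3 and 207.7 kb in the restricted libraries (log2 difference -0.67, exact permutation p = 0.33). In the rest of the chromosomes the same class covered 46.1, 34.0, 85.2 and 35.7 kb, where the groups overlapped (exact permutation p = 0.667).

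The local background also divided the members. It is the deposited pileup, the read coverage at a peak, divided by the deposited fold over the local input, and it was set against the level that the depth of the smaller library gives over the genome. Peaks with a background over 10 times that level covered 378.6 and 374.9 kb in the controls and 256.3 and 246.8 kb in the restricted libraries. The means were 376.7 ± 2.6 kb and 251.6 ± 6.7 kb (SD, n = 2 each), with lane ratios of 0.677 and 0.658 (log2 difference -0.58, exact permutation p = 0.33). The other member peaks covered 161.8, 92.3, 203.8 and 66.5 kb, which interleaved (exact permutation p = 1.0). A split by fold gave a similar contrast, but the background is computed from the fold, so the 2 splits are not independent. Member peaks with a fold under 2 covered 378.9 and 357.3 kb against 236.2 and 230.4 kb, and those with a fold of at least 2 covered 161.4, 109.8, 223.8 and 83.0 kb. The classes by width, background and fold were chosen after the data were seen, and, like that by q, each is set by the library's own values, so a site can be in a class in one library and outside it in another. Input libraries differed in depth, with 27721656, 24434844, 23523460 and 27843707 reads, and the part of the input in these lengths was not tested.

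**Figure D1:**
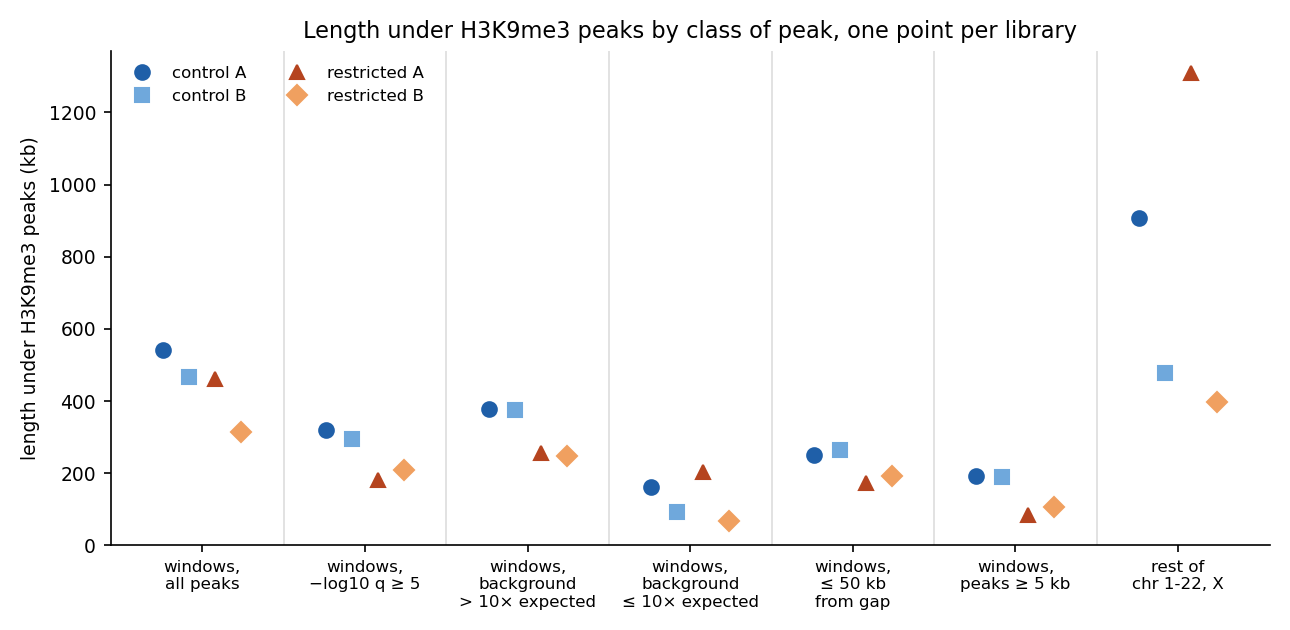
Length under H3K9me3 peaks in kb (y axis) for classes of member peaks and for the rest of chromosomes 1 to 22 and X (x axis), 1 point per library. Both restricted libraries lie below both controls for wide peaks, high-background peaks and peaks near the gap, while the rest of the chromosomes spans 397.3 to 1309 kb with the groups interleaved.

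Member peaks had more reads but a smaller enrichment over input than other peaks of the same list. The median pileup in the windows was 45.1, 83.2, 23.3 and 76.4 reads, against 18.6, 17.5, 15.6 and 19.4 elsewhere. The median fold was 2.19, 1.95, 2.80 and 2.05 in the windows and 3.11, 3.22, 3.48 and 3.17 elsewhere. The background was 6.64, 16.1, 3.01 and 12.4 times the expected level at the median member peak and 1.61 to 1.95 times elsewhere. The median −log10 q was 2.72, 3.48, 2.45 and 3.66 in the windows against 1.82 to 2.05 elsewhere. Member peaks were also wider, with medians of 850, 1053, 846 and 904 bp against 679, 706, 636 and 637 bp. Each of these 5 differences had the same direction in 4 of 4 libraries (exact two-sided sign-flip permutation test, p = 0.13 each, the smallest that 4 libraries allow). Restricted A had the lowest median pileup and the highest median fold of the 4 libraries in the windows. The peaks elsewhere include those beside the centromeres of the acrocentric chromosomes, which shared these traits in part. Their median pileup was 33.1, 30.1, 22.1 and 34.0 reads and their median fold 2.51, 2.65, 2.99 and 2.47. Their background was 4.22, 3.89, 2.94 and 4.31 times the expected level. Their median width of 752.5, 848, 981 and 975 bp exceeded that of the member peaks in both restricted libraries.

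**Figure D2:**
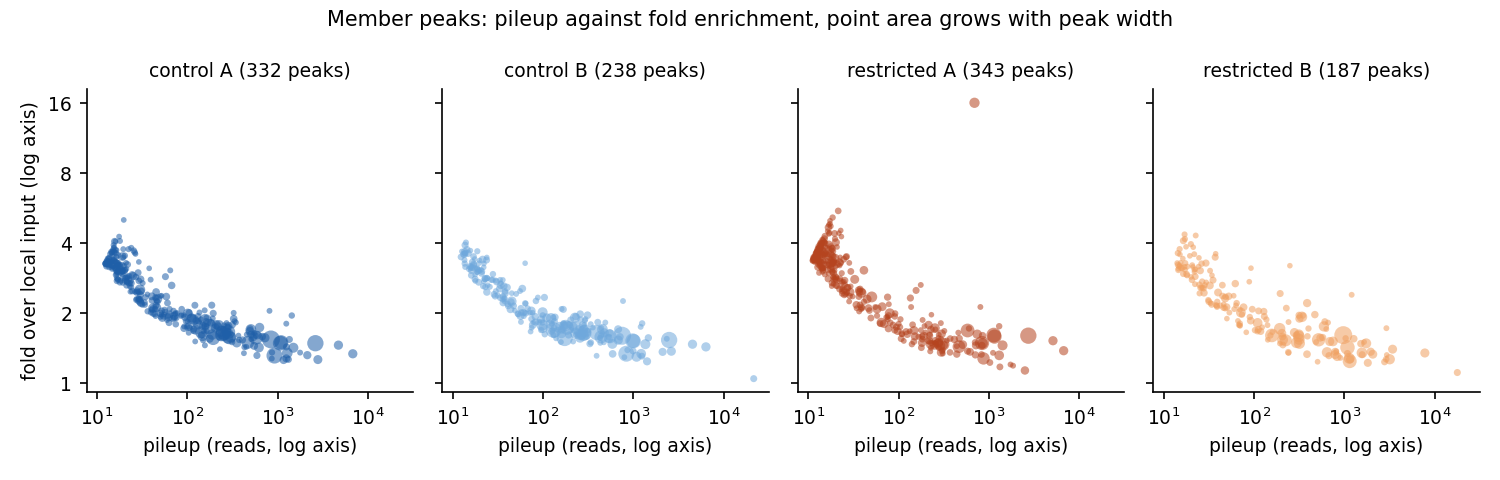
Fold over local input (y axis, log) against pileup in reads (x axis, log) for every member peak, 1 panel per library, with point area growing with peak width. Most peaks with a high pileup have a fold between 1 and 2, and 1 peak of restricted A stands apart at a fold of 16.1.

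The member peaks with the strongest q lay on a few high-coverage segments. At chr10:42596817-42600244 the −log10 q was 145.1 in control A with a fold of 1.46 and a pileup of 4708 reads. Nearly the same interval had −log10 q of 138.3 in control B and 187.3 in restricted A. In restricted B no peak there was among the 2 member peaks with the highest q, of which the second had 138.8. At chr7:61967191-61970632 the value was 110.0 in control A with a fold of 1.34, and 157.5 in control B with a fold of 1.43. Nearly the same interval had 109.4 in restricted A with a fold of 1.38 and 133.6 in restricted B with a fold of 1.35, so the groups overlapped. In restricted B the second strongest member peak was chr16:35239438-35239924, with a −log10 q of 138.8 and a fold of 2.40. Nearly the same interval had 64.1 in control A, 73.2 in control B and 69.6 in restricted A, with folds of 2.05, 2.26 and 2.13. The deepest member pileup, 21551 reads, was listed in control B on chr1, at the edge of the gap.

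At 1 segment of chr8 the fold went apart in a single library. Restricted A listed 1 peak at chr8:43092672-43097292 with a fold of 16.1, a pileup of 693 reads and a −log10 q of 655.1. Its background, computed from pileup and fold as above, was 43.2 reads over 4621 bp. The other 3 libraries each listed 2 peaks within this interval, with folds of 1.35 to 1.73. Their pileups were 1267 to 2912 reads and their backgrounds 815 to 1688 reads. These peaks were 500 to 1799 bp wide, so the values are not over the same stretch. The other member peaks named for a high fold reached 5.51 in restricted A at chr7:57926992-57928073, 5.04 in control A at chr11:51491377-51491755, 4.36 in restricted B at chr3:95463681-95464311 and 4.03 in control B at chr3:89860728-89861348. Their backgrounds were 3.49 to 3.93 reads.

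Peak length was concentrated at the very edge of the centromere gap, defined as the stretch without any listed region around the centromere. Within 50 kb of the gap the members covered 146.7, 154.9, 102.3 and 113.3 kb per Mb of sequence. From 50 to 200 kb the values were 8.36, 7.04, 5.21 and 6.81 kb per Mb, and from 2 to 5 Mb they were 0.694, 0.419, 0.910 and 0.224. The first 50 kb thus held 46.1%, 56.4%, 37.8% and 61.5% of all member length. The gap was set from the lists themselves, so a listed region of either mark always borders it.

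Within 50 kb of the gap both restricted libraries were below both controls. The lengths were 249.4 and 263.3 kb in the controls and 173.8 and 192.6 kb in the restricted libraries, with lane ratios of 0.697 and 0.732 (log2 difference -0.49, exact permutation p = 0.33). The number of peaks there was 76, 76, 72 and 63. Peaks with a fold of at least 2 made up only 5.19, 8.76, 11.5 and 12.01 kb of this length and had the opposite direction (log2 difference 0.80, exact permutation p = 0.33). Between 0.5 and 1 Mb restricted B stood apart, with 1.44 kb per Mb against 5.57, 4.54 and 4.87 in the other libraries. This distance class was chosen after the data were seen.

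**Figure D3:**
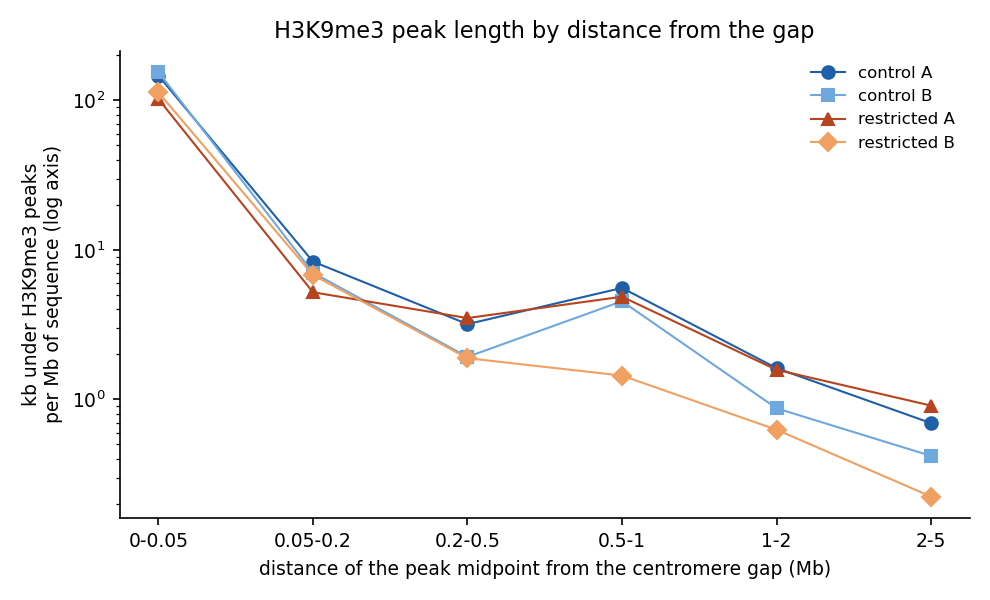
Length under member peaks in kb per Mb of sequence (y axis, log) by distance of the peak midpoint from the centromere gap in Mb (x axis), 1 line per library. All 4 lines drop more than 10-fold after the first class, where the controls lie at 146.7 and 154.9 and the restricted libraries at 102.3 and 113.3.

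On the p side of the gaps the members covered 310.1, 263.2, 266.3 and 148.7 kb, and the groups overlapped (exact permutation p = 0.667). On the q side they covered 230.2, 203.9, 193.8 and 164.7 kb, with both restricted libraries lower (log2 difference -0.28, exact permutation p = 0.33).

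Among single windows, 5 of 17 had less length under peaks in each restricted library than in each control, and 0 had more. The background over the 210 windows and 13 Mb tiles of the genome was 4.29% lower and 10.5% higher. The 5 windows were those of chromosomes 2, 4, 5, 10 and X. When each library was scaled by its listed length, as relative density (the share of a window under peaks over the share of all chromosomes under peaks), chr2, chr4 and chr10 were lower and chr18 was higher. The background for density was 8.1% lower and 21.4% higher. With limma on log2(relative density + 0.1), 0 of the 210 windows and tiles had a Benjamini-Hochberg adjusted p under 0.05 (0% called). An unadjusted p under 0.05 was reached by 4 of them, of which 1 was a window. The median log2 difference was -0.12 over the 17 windows and 0.14 over all 210.

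The window of chr4 had the largest difference. It held 75.4 kb and 65.6 kb in control A and B, and 52.0 kb and 8.07 kb in restricted A and B, so restricted B was far below the other 3. The log2 difference in relative density was -1.70 (SE 0.57, limma adjusted p = 0.958, unadjusted p = 0.0149). Most of the difference was on the short arm, where stretches were picked after their values were seen. From 0.5 to 0.6 Mb from the gap 44.0, 38.0, 22.5 and 1.51 kb were listed, and within 0.1 Mb 17.1, 16.8, 13.4 and 0 kb.

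The chr2 window held 57.2 kb and 47.7 kb in control A and B, and 43.7 kb and 22.7 kb in restricted A and B. On its short arm the first 0.1 Mb from the gap had 23.3, 22.5, 14.4 and 22.02 kb, where restricted A alone was low. Beyond 1 Mb it had 25.8, 16.1, 16.6 and 0 kb, where restricted B listed no peak. The 2 restricted libraries were thus low at different places of 1 window.

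The chr10 window had 59.5, 49.9, 43.8 and 26.8 kb, with both restricted libraries below both controls. The chr5 window had 19.2, 16.8, 5.17 and 9.68 kb, with restricted A lowest. The chrX window had 50.4, 55.3, 20.2 and 50.04 kb, and there only restricted A stood apart, since restricted B was within 1 kb of control A.

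The other windows showed no order by group in kb. By number of peaks, chr20 alone among them was ordered, with 6, 6, 13 and 8 peaks, higher in both restricted libraries. The chr16 window was the most covered, with 81.5, 70.0, 100.2 and 42.0 kb, the highest and the lowest value both being in restricted libraries. The same held for chr7, at 36.4, 22.9, 43.3 and 17.4 kb, and for chr17, at 35.7, 32.1, 36.3 and 23.7 kb. The chr1 window had 37.3, 28.8, 29.5 and 28.2 kb, and the chr8 window 30.02, 36.2, 32.3 and 33.6 kb. Smaller totals were found on chr18 with 13.2, 9.34, 17.6 and 11.5 kb and on chr11 with 12.97, 14.1, 5.41 and 13.6 kb. The chr9 window had 10.0, 2.56, 7.92 and 8.85 kb, and the chr6 window 8.06, 6.01, 8.52 and 6.14 kb. Low totals were also found on chr20, at 3.38, 6.91, 9.44 and 5.06 kb, although it exceeded chr6 and chr9 in control B and in restricted A. The chr12 window had 6.35, 1.29, 2.56 and 3.65 kb, and the chr3 window 3.74, 1.49, 2.17 and 2.40 kb.

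**Figure D4:**
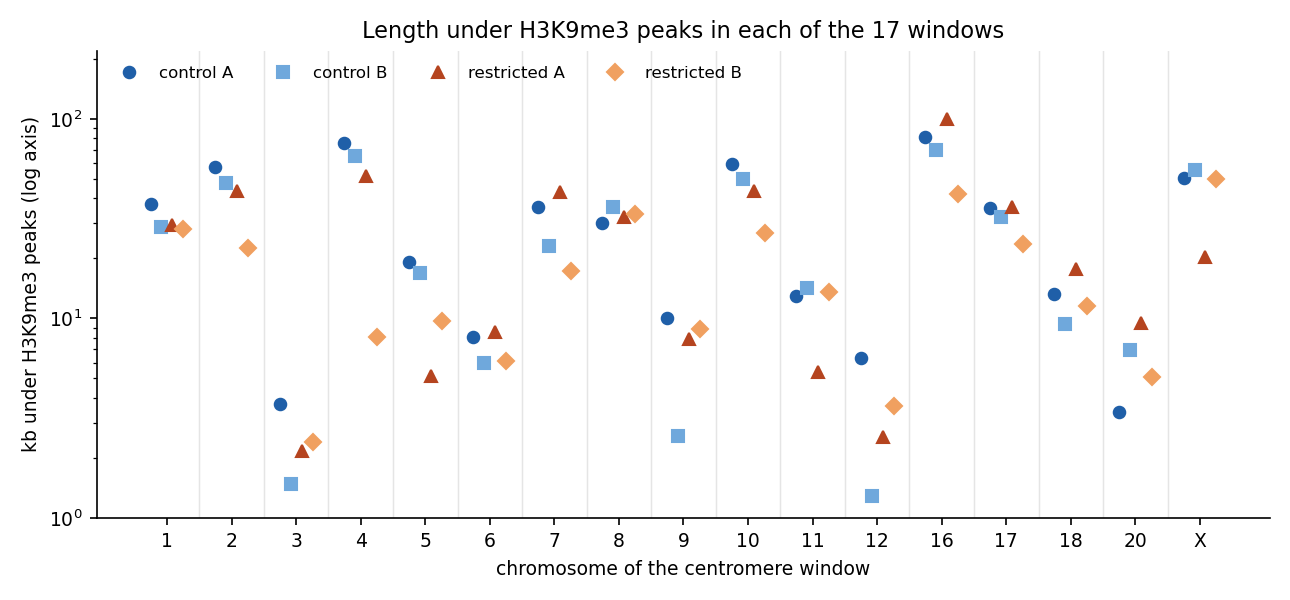
Length under member peaks in kb (y axis, log) in each of the 17 windows (x axis, by chromosome), 1 point per library. Both restricted points lie below both control points on chromosomes 2, 4, 5, 10 and X, and restricted B drops to 8.07 kb on chr4 while restricted A drops to 20.2 kb on chrX.

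At a finer scale, 89 bins of 1 Mb in the windows had a peak in at least 2 libraries. Of 678 such bins over the genome limma called 0 (0%, smallest adjusted p = 0.492), with 62 at an unadjusted p under 0.05, of which 7 lay in the windows. The density of 9 member bins (10.1%) was lower in both restricted libraries, against 11.9% of all bins, and that of 9 (10.1%) was higher, against 17.3%. Both shares were thus at or below the background.

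The lower bins named by size of log2 difference held most length on chr2 and chr10. This ranking left out the lower bin at chr4:49000001-50000000, with a log2 difference of -1.82 (limma adjusted p = 0.492). Its relative density was 151.8, 203.2, 81.1 and 30.4, higher in every library than that of the named bins. The bin at chr2:89000001-90000000 held 12.1, 10.7, 7.13 and 0 kb, that at chr2:90000001-91000000 held 11.97, 5.43, 9.50 and 0 kb, and that at chr10:39000001-40000000 held 8.31, 5.08, 4.31 and 0 kb. In kb rather than density the second of these overlapped between the groups. The bin at chr5:42000001-43000000 held 2.73, 1.10, 1.51 and 0 kb, which also overlap in kb, and that at chr2:96000001-97000000 held 0.643 and 1.42 kb in the controls with both restricted libraries at 0. The higher bins were small. At chr20:30000001-31000000 both controls were at 0 and the restricted libraries had 1.34 and 0.684 kb. At chr18:11000001-12000000 these were 0.916 and 0.490 kb, and at chr17:20000001-21000000 they were 0.777 and 0.409 kb. At chr20:31000001-32000000 they were 0.477 and 0.575 kb, and at chr8:50000001-51000000 they were 0.813 and 0.324 kb, again with both controls at 0.

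Merging peaks within 1 kb gave 582 regions in the windows out of 3228. A region was called in all 4 libraries for 66 of the 582, or 11.3%, against 4.65% of all regions and 84 of 2646, or 3.17%, elsewhere. Conversely, 351 member regions (60.3%) were seen in 1 library, against 76.9% elsewhere. The 66 shared regions had a median width of 3026 bp and a median distance of 52.9 kb from the gap, whereas the regions of 1 library had 573 bp and 1304 kb. On the p and the q side there were 33 each. The chr16 window had 9 of them, chrX 8, and chr1 and chr4 7 each, while chr3, chr12 and chr20 had none.

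Some of the shared regions were shorter in the restricted libraries. In 18 of the 66 the length under peaks was lower in both restricted libraries and in 3 it was higher, while among all 150 shared regions these shares were 14% and 10.7%. Of the 84 shared regions elsewhere, 3 were shorter and 13 were longer. The 66 regions together held 257.8, 262.8, 201.3 and 223.0 kb under peaks (log2 difference -0.30, exact permutation p = 0.33). Their median pileup was 275, 259, 267 and 304 reads and their median fold 1.69, 1.73, 1.68 and 1.68. The pileup overlapped between the groups, and the fold was slightly lower in both restricted libraries.

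The widest shared region, chr17:22244622-22261846, held 17.01, 17.2, 14.9 and 17.2 kb and ended at the gap. At chrX:58565964-58581831 the values were 14.05, 13.7, 0.302 and 12.1 kb. At chrX:61694248-61707970, on the other side of the gap, they were 10.4, 12.7, 4.21 and 12.1 kb. Restricted A was the low library in both chrX regions. At the first of them it still had the highest pileup at its remaining peak, 254 reads against 193, 174 and 224.

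On chr10 the region chr10:42383258-42397126 held 13.9, 13.8, 13.9 and 8.11 kb, with restricted B low. On chr16 the regions 46397939-46409080 and 46419035-46428910 showed the same order, with 11.1, 11.1, 11.1 and 8.06 kb and with 9.84, 9.39, 9.43 and 6.67 kb. The neighbouring chr16:46385884-46396059 held 10.1, 10.1, 10.2 and 9.74 kb, so its 4 libraries were close together.

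Both restricted libraries were below both controls at chr2:92312540-92325769, with 13.2, 13.2, 8.39 and 11.9 kb, and at chr5:49429010-49441051, with 8.91, 9.40, 1.94 and 4.19 kb. At chr8:43826808-43838891 the lengths were 7.26, 12.1, 6.92 and 8.93 kb, and the groups overlapped. Among these 10 widest regions the folds ran from 1.24 to 1.78.

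Few regions followed the condition by presence. In the windows 20 of 582 regions (3.44%) were listed in both controls and neither restricted library, against 2.14% of all regions. Listed in both restricted libraries and neither control were 6 (1.03%), against 2.45% of all. When only peaks with a −log10 q of 5 or more were kept, 18 of 279 regions were in the controls alone (6.45%) and 15 of these 18 lay in the windows, which held 131 of the 279. In the restricted libraries alone were 5 (1.79%), of which 2 lay in the windows.

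The widest control-only regions had weak peaks. The region chr16:33308947-33312865 had 2.22 and 1.03 kb under peaks with folds of 3.05 and 3.22, and chr16:33347317-33349987 had 1.43 and 0.341 kb with folds of 2.40 and 2.64. The others were chr17:21548112-21549730, chr4:44072900-44074430 and chr7:61634700-61636218. The −log10 q of these 5 ran from 1.31 to 4.02. The widest restricted-only region was chr9:68454000-68456806, with 1.02 and 1.25 kb and folds of 3.36 and 2.18. It was followed by chr4:49335356-49336704 with 1.13 and 1.35 kb, then chr20:30709594-30710277, chr18:11613259-11613881 and chr8:42794309-42794912. The sixth, named because the count is small, was chr8:43542424-43543018.

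Within the windows, the sequence covered was shared most between the 2 controls. The base-pair Jaccard index, the shared length over the joint length, was 57.0% in the windows for the controls, 29.6% for the restricted pair and 37.4% to 42.8% for pairs across conditions. Outside the windows it was 12.8%, 10.1% and 10.1% to 14.2%. In the windows the restricted libraries were thus more different from each other than either was from a control, while outside them control A and restricted A had the highest index. With 4 libraries these 6 values were not tested.

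H3K9me1, the monomethyl mark at the same lysine, was profiled in the same design and compared on the 8 chromosomes that all H3K9me1 lists hold (1, 2, 6, 7, 10, 12, 16 and 17). Of the 373 H3K9me3 member regions there, 59 (15.8%) and 92 (24.7%) overlapped an H3K9me1 region in the controls and 180 (48.3%) and 183 (49.1%) in the restricted libraries. The log2 difference of the share was 1.30 (exact permutation p = 0.33). The depth of H3K9me1 was 30952210 and 31683422 reads for the controls and 39452512 and 35134998 for the restricted group, so both restricted libraries were also the deeper ones, and the part of depth in this difference was not tested. H3K9me1 covered 10.8%, 13.6%, 5.79% and 13.8% of these windows. Over the windows as a whole, restricted A thus listed the least of it and restricted B slightly more than control B.

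This difference was also present away from the centromeres. Of 988 H3K9me3 regions in the rest of these chromosomes, 18.6%, 29.6%, 61.4% and 62.7% overlapped H3K9me1. Over regions listed in any library, the ratio of the share in the windows to that elsewhere was 0.849 and 0.835 in the controls. It was 0.786 and 0.783 in the restricted libraries (log2 difference -0.10, exact permutation p = 0.33). This order depended on the regions used. Of the 494 regions elsewhere listed in at least 1 control, 15.99%, 31.17%, 48.99% and 58.10% overlapped H3K9me1. For such regions in the windows the shares were 18.5%, 25.4%, 40.7% and 49.6%. Only control A was then higher in the windows than elsewhere, and the ratio was not ordered by group.

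Within the windows the difference lay in regions of ordinary background. Where no library had a background over 10 times the expected level, the share with H3K9me1 was 10.4%, 21.8%, 52.6% and 48.4% of 289 regions. In the other 84 it was 34.5%, 34.5%, 33.3% and 51.2%, and in the 37 regions called in all 4 libraries it was 48.6%, 48.6%, 35.1% and 70.3%, where restricted A was lowest and restricted B highest. Among the 248 regions listed in at least 1 control it was 18.5%, 25.4%, 40.7% and 49.6%. The H3K9me1 lists were called at a weak threshold. They share their input library with H3K9me3 of the same time and letter, and the part of that input in the overlap was not tested.

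**Figure D5:**
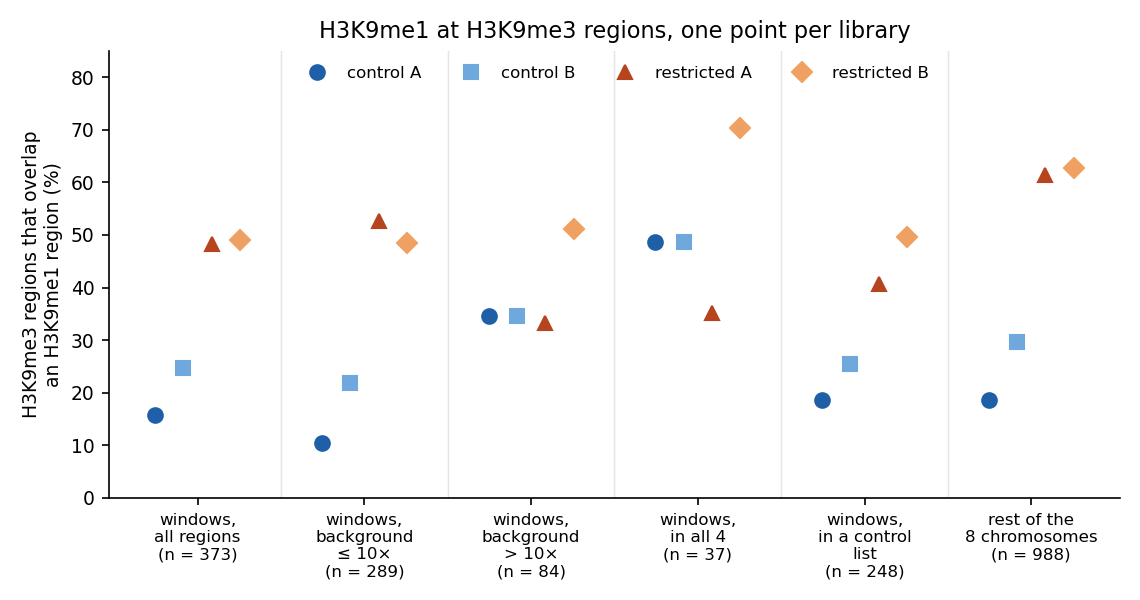
Share of H3K9me3 regions that overlap an H3K9me1 region in percent (y axis) for sets of regions (x axis, with the number of regions), 1 point per library. The restricted libraries lie above the controls for all regions of the windows (48.3% and 49.1% against 15.8% and 24.7%) and in the rest of the 8 chromosomes, but not in high-background regions or those found in all 4 libraries.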

How the data were processed

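H3K9me3 peak lists of 2 control (0 hr) and 2 methionine-restricted (24 hr) HCT116 libraries were used, with the matching H3K9me1 lists. Per the submitters' processing notes the build was hg19 and the tools were MACS2 2.1.1.20160309, Bowtie2 2.1.0 and SAMtools 1.5. Each library had its own broad peak calls against its own input, per the file headers. For H3K9me3 all duplicates were kept, and strong regions passed q 0.05 and weak ones 0.1, while for H3K9me1 weak regions needed only a p of 0.1. The deeper of library and input was scaled down, also per the file headers. The deposited pileup is a signal, the deposited q is given as −log10, and fold enrichment as deposited is a ratio. These caller values served to describe peaks and to select them for the classes of length. Some are set side by side between libraries. They depend on the depth and the input of each library and were themselves not tested between the groups. Peak lists hold no read counts per region, so depth limits what was called but no interval for a single peak was computed.

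Chromosomes 1 to 22 and X were used. Peaks within 1 kb were merged and an overlap of at least 1 bp counted as presence. Single values were compared, as log2, with an exact permutation test (two-sided, 6 relabellings). Windows with 13 Mb tiles, and 1 Mb bins that 2 or more libraries had peaks in, were fitted with limma 3.58.1 (R 4.3.3; lmFit, eBayes with trend and robust) on log2(relative density + 0.1), with Benjamini-Hochberg adjustment over the whole table. The code was tested on simulated data. Named were all windows, up to 5 bins per direction (where none passed, the largest differences among bins without overlap of the groups and with a mean density of at least 0.5), the 10 widest regions in all 4 libraries, the 5 widest in each condition alone, and per library the 2 peaks with the highest q and the 2 with the highest fold, of which the text gives the leading ones. The windows and lists were chosen with earlier results of these data known. The classes by width, background, fold and distance, and the share of regions with H3K9me1, were added after the data were seen. The alternatives were stricter thresholds, merging, equal numbers of peaks, scalings, pseudocounts, filters, leaving out each library and a replicate block by letter. No sequence or gene annotation of hg19 was used here.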

Additional observations from a re-analysis of the deposited data

How the results depend on the processing

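The limits are 2 libraries a group, which cannot reach an exact p below 0.33, and lists that hold only what passed the caller. Differences are log2, restricted minus control. With a fold of at least 2 the member length turned to 0.0338, the peak count to 0.0239 and the length within 50 kb of the gap to 0.80. Leaving out each library gave -0.68 to -0.13 for the length, -0.59 to 0.29 for the peak count (0.09 without control A, 0.29 without restricted B) and -0.72 to 0.0368 for the share of listed length (0.0368 without restricted A). It gave -0.56 to -0.41 within 50 kb of the gap, -1.20 to -0.84 for peaks of at least 5 kb, -0.61 to -0.56 for high-background peaks and 0.98 to 1.62 for the share with H3K9me1.

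Region counts moved with the settings. Control-only regions were 12 with merging within 5 kb and 37 to 136 with a library left out. Restricted-only regions were 2 with −log10 q of at least 5, 3 with equal numbers of peaks and 12 to 151 with a library left out. Regions in all libraries used were 37 with −log10 q of at least 5 and 73 to 116 with a library left out. Leaving out a library loosens what these patterns require.

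With limma, leaving out a library gave 0 to 2 called windows and tiles (2 without control A) and 0 to 14 called bins (14 without restricted A, 5 without restricted B). A lone library was then assumed to vary like the other group. Without scaling, the windows of chr3, chr8 and chr12 turned to -0.0640, -0.000786 and -0.0126, and with −log10 q of at least 5 chr7 and chr16 turned to 0.61 and 0.17. With a library left out, the ranges that crossed 0 were -0.74 to 0.50 (chr1), -0.60 to 0.65 (chr3), -0.29 to 0.51 (chr6), -0.0405 to 0.0074 (chr7), -0.62 to 0.74 (chr8), -1.82 to 0.71 (chr11), -0.67 to 0.95 (chr12), -0.36 to 0.0388 (chr16), -0.49 to 0.20 (chr17), -0.23 to 1.29 (chr20) and -1.95 to 0.64 (chrX). The other 6 windows kept their direction there. The causes were not tested. The fit of 1 Mb bins with no filter could not be fitted.

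The letter as a replicate block gave 0 called windows and tiles and 0 called bins. Deviations of A from B correlated between the groups at 0.109 over tiles and over bins, and with 2 pairs nothing beyond the letter and the sequencing lane ties same-lettered libraries.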
